A study of Mus musculus with 4 samples.

Results

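Thymic egress and late maturation were followed through 9 genes, Klf2, S1pr1, S1pr4, Cd69, Cd44, Selplg, Ms4a4b, Ms4a6b and Cd52, of the 18193 genes named on the array. They were taken by their symbols in the platform annotation, which gave 14 probe sets of 45037, and the probe set whose mean over the 4 arrays was highest stood for each gene. RNA of sorted CD4+ CD8- thymocytes from female mice of 6 to 8 weeks was measured on Affymetrix mouse 430 2.0 arrays, 1 array per population. The first population was GFP+ cells of Foxp3(gfp/gfp) mice, homozygous for a knock-in allele whose product is a fusion of GFP with Foxp3, the transcription factor of regulatory T cells. These are called Foxp3-fusion cells. The second was GFP+ cells of Foxp3(gfpko/wt) females, heterozygous for a GFP-marked knockout allele and called Foxp3-null cells. GFP- CD25+ cells and GFP- CD25- cells of Foxp3(gfp/gfp) mice were the others, so 3 of the 4 populations were homozygous for the fusion allele. Foxp3 is X-linked, so the heterozygous females also hold cells that use the wild-type allele. The Foxp3-null mice had been backcrossed from 129/Sv to C57BL/6 for 2 generations and the other mice for 4 to 6 generations, so genotype, backcross and array cannot be told apart in a comparison with Foxp3-null cells. The sources used here do not say how many animals went into an array. Every difference below is between 1 array and another, with no replicate check and no p-value, and having 1 array for each population limits how precise any value is.

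Newly selected CD4 thymocytes mature in the thymic medulla before they leave through blood and lymph vessels. In mice the transcription factor Klf2 is switched on late in this maturation and activates S1pr1, which encodes the receptor that senses sphingosine 1-phosphate in blood and draws cells out. CD69, a surface protein induced by antigen receptor signals, binds S1PR1 and removes it from the surface, so its loss goes with readiness to leave. CD44 binds hyaluronan and PSGL-1, encoded by Selplg, binds selectins, and both serve the adhesion and migration of T cells. Ms4a4b, Ms4a6b and Cd52 encode small membrane proteins of maturing and mature T cells.

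Values are log2 signals after quantile normalization of the 4 arrays, and values as deposited are given beside many of them. A floor of 4.19 log2, taken from genes silent in thymus, marks signals that cannot be told from background. Foxp3 read 8.82 log2 in Foxp3-fusion cells, 7.27 in Foxp3-null cells and under the floor in both GFP- populations (2.88 in CD25+ and 2.76 in CD25- cells). Its signal in Foxp3-null cells does not check the knockout, since the sources used here do not place the probe set relative to the altered region. The T cell markers Cd3e and Cd4 were above the floor on all 4 arrays, and so were all 8 T cell markers on the array. Of 50 markers of other cell types, 37 were under the floor on every array, among them Cd79a, Pax5, Itgax, Lyz2, Prf1, Foxn1 and Hba-a1. Of 8 markers of natural killer and related T cells, 1 was above the floor in each of the first 3 populations and 3 in GFP- CD25- cells, where Klrd1 read 6.32 and Zbtb16 6.39 log2, and their summed linear signals were 92.9, 118, 132 and 230 in the order of the populations above. Their part in the results was not tested. The 3' and 5' control probe sets of actin differed by 5.02 log2 on the Foxp3-fusion array, 7.10 on the Foxp3-null array, 9.29 on the GFP- CD25+ array and 8.37 on the GFP- CD25- array as deposited, a gap that widens with shortened RNA products. The part of this gap in the differences below was not tested. In RNA of whole populations, fewer cells with a transcript and less transcript per cell cannot be told apart.

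All 9 genes were above the floor on every array, and the GFP- CD25+ array stood lowest for most of them. Klf2, Cd69, Selplg, Ms4a4b, Ms4a6b and Cd52, or 6 of the 9, had their lowest value in GFP- CD25+ cells, against 19.2% of the 7098 genes above the floor on all arrays. On the deposited scale S1pr4 joined them, which made 7 of 9 against 26.8% of genes. Because the 9 genes were chosen with earlier results of these data known, these shares are a description only. None of the 9 was highest in GFP- CD25+ cells on either scale, where 21.9% of genes were (16.5% as deposited). Foxp3-fusion cells were highest for S1pr4, Cd44 and Ms4a6b on both scales, and GFP- CD25- cells for Cd69 and Ms4a4b on both scales. In all, Foxp3-fusion cells were highest for 3 of the 9 (6 as deposited), against 24.5% of genes (48% as deposited). GFP- CD25- cells were highest for 2 (3 as deposited), against 15.2% of genes (18.9% as deposited). Foxp3-null cells were highest for 4, but for 0 as deposited, against 38.4% and 16.6% of genes. These places are those of the main probe sets, and on its second probe set Ms4a4b was lowest in Foxp3-null and highest in Foxp3-fusion cells. The GFP- CD25+ array also had the widest actin gap, whereas the gap of the Gapdh controls was 4.60 log2 on the Foxp3-fusion array, 4.93 on the Foxp3-null array, 6.51 on the GFP- CD25+ array and 6.56 on the GFP- CD25- array.

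**Figure D1:**
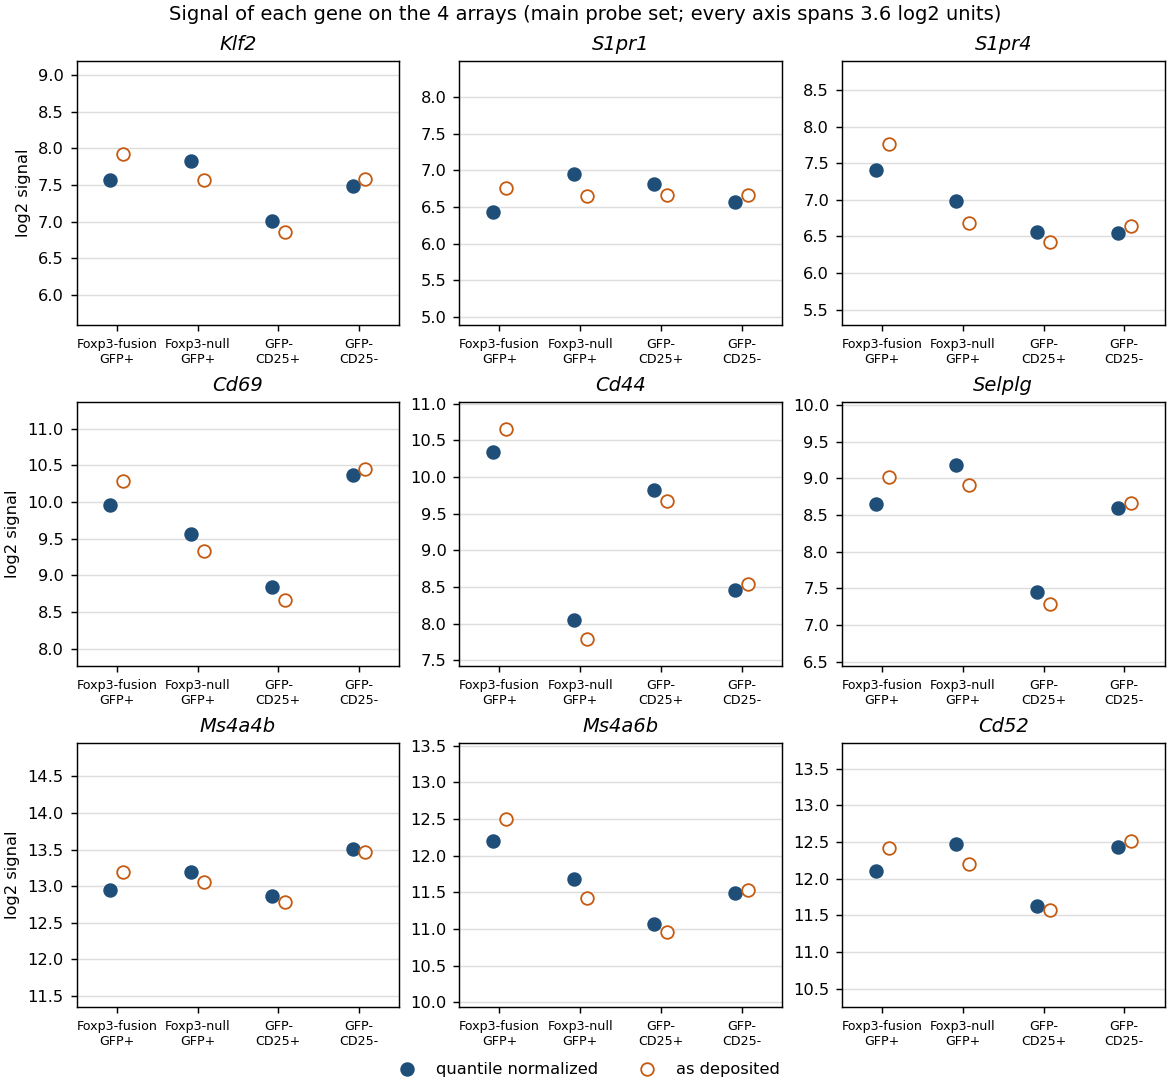
Log2 signal of the main probe set of each of the 9 genes on the 4 arrays, with 1 array per population, as filled points after quantile normalization and open points as deposited. On these probe sets Klf2, Cd69, Selplg, Ms4a4b, Ms4a6b and Cd52 are lowest in GFP- CD25+ cells, Cd44 spans 2.29 log2 units after normalization, and S1pr1 is nearly level as deposited.

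Between pairs of arrays, few of the 9 genes were 2-fold apart, and the counts are read against the share of all measured genes that were. Of the 9 genes, 1 stood at least 2-fold higher in Foxp3-fusion over GFP- CD25- cells and 0 lower, where 10.1% of 7979 genes were higher and 5.39% lower (14.8% and 3.69% as deposited). In Foxp3-null over GFP- CD25- cells 0 were higher and 0 lower, where 10.8% of genes were higher and 7.57% lower (5.43% and 11.7% as deposited). In GFP- CD25+ over GFP- CD25- cells 1 was higher and 2 were lower, where 4.17% of genes were higher and 4.53% lower (2.79% and 7.19% as deposited). Foxp3-fusion over Foxp3-null cells gave 1 higher and 0 lower, where 9.3% of genes were higher and 9.29% lower (19.6% and 3.77% as deposited). Foxp3-fusion over GFP- CD25+ cells gave 3 higher and 0 lower, where 11.6% of genes were higher and 8.19% lower (21.1% and 3.31% as deposited). Foxp3-null over GFP- CD25+ cells gave 1 higher and 1 lower, where 8.65% of genes were higher and 7.37% lower (6.27% and 8.14% as deposited). The lower gene was Cd44, at -1.77 log2 on its main probe set but 0.32 on its second.

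The median over the 9 genes was 0.06 log2 in Foxp3-fusion and 0.19 in Foxp3-null over GFP- CD25- cells, against -0.05 and 0.20 over all measured genes. For GFP- CD25+ over GFP- CD25- cells it was -0.47 against 0.10 over all genes. For Foxp3-fusion over Foxp3-null cells it was -0.25 against -0.15. As deposited the median of the 9 genes had the other sign in 2 of these, at 0.36 against 0.23 over all genes for Foxp3-fusion over Foxp3-null cells, and -0.10 against 0 for Foxp3-null over GFP- CD25- cells. Relative to GFP- CD25+ cells it was 0.55 in Foxp3-fusion cells and 0.62 in Foxp3-null cells, against -0.09 and 0.10 over all genes, and these comparisons share the GFP- CD25+ array. Going to the deposited scale shifted the median of all genes by 0.17, -0.20, -0.10, 0.39, 0.28 and -0.10 log2 in the 6 comparisons in the order of the counts above. Of the 54 member differences, 41 had the same sign on both scales, and 50 did once the median of all genes was taken off. At least 2-fold on both scales were 10 of the 54, which belonged to Cd44 (4), Selplg (3), Cd69 (2) and Ms4a6b (1). Those of Cd44 include Foxp3-null over GFP- CD25+ cells, where its second probe set ran the other way.

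**Figure D2:**
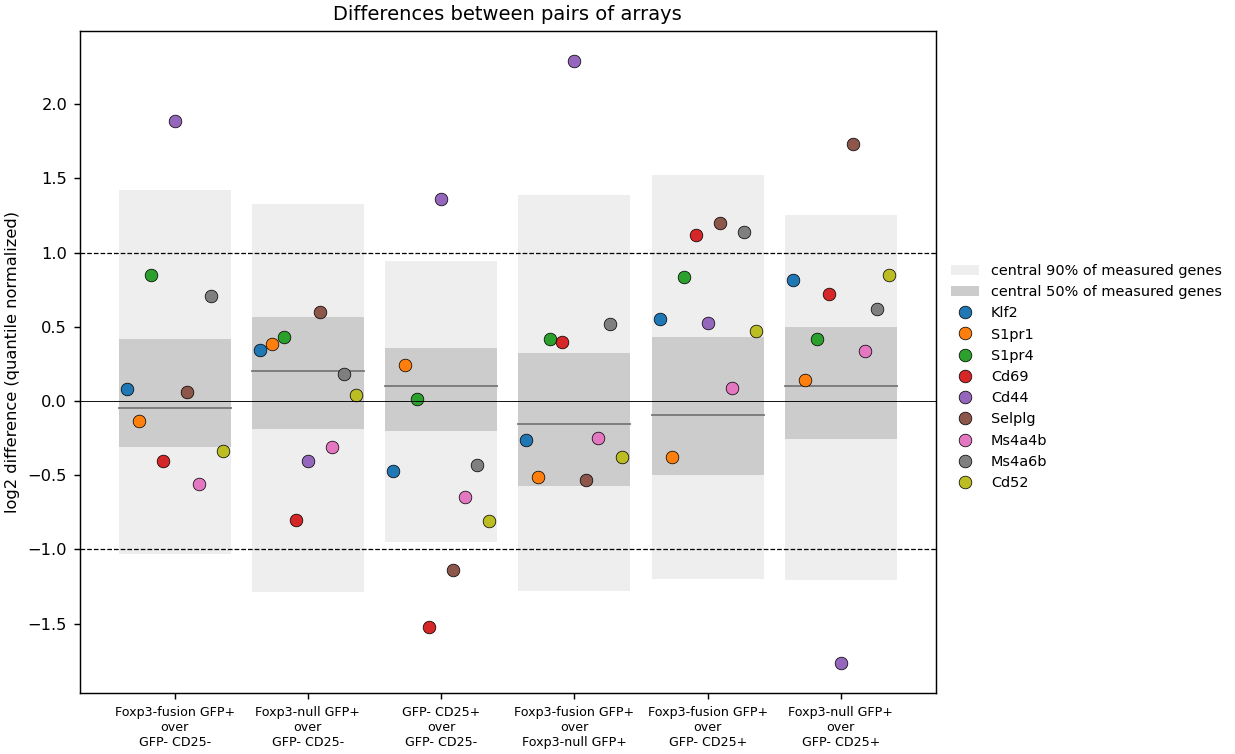
Log2 difference of each of the 9 genes (points) in the 6 pairs of arrays, over the central 90% and 50% of all measured genes (shaded) and their median (line), with dashed lines at 2-fold. On its main probe set Cd44 lies outside the central 90% in 4 pairs. Cd69 and Selplg lie below the central 90% in GFP- CD25+ over GFP- CD25- cells, and Selplg lies above it in Foxp3-null over GFP- CD25+ cells.

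Klf2 differed little among the populations apart from a lower signal in GFP- CD25+ cells. It read 7.57 log2 in Foxp3-fusion cells, 7.83 in Foxp3-null cells, 7.01 in GFP- CD25+ cells and 7.49 in GFP- CD25- cells. Signal in GFP- CD25+ cells was 1.39-fold lower than in GFP- CD25- cells, and 85.6% of measured genes had a higher difference in that comparison. Foxp3-null cells exceeded GFP- CD25+ cells by 1.76-fold and Foxp3-fusion cells exceeded them by 1.47-fold, and the Foxp3-fusion value became 2.10-fold as deposited. The order of Foxp3-fusion and Foxp3-null cells depended on the scale, with a difference of -0.26 log2 normalized and 0.36 as deposited. Klf2 was under 2-fold apart in all 6 normalized comparisons.

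Several other Kruppel-like factor genes differed by more than Klf2. Klf6, an immediate-early gene of many cell types, read 8.22 log2 in Foxp3-fusion cells, 4.99 in Foxp3-null cells, 5.57 in GFP- CD25+ cells and 5.75 in GFP- CD25- cells. Foxp3-fusion cells stood 9.35-fold above Foxp3-null cells for Klf6, 4.05-fold for Klf10 and 2.64-fold for Klf7. In that comparison 3 of 9 measured family members were at least 2-fold higher and 0 lower (4 and 0 as deposited). Among all genes 9.3% were higher and 9.29% lower (19.6% and 3.77% as deposited). Klf3, a repressor of the family, stood in Foxp3-fusion cells 3.92-fold above GFP- CD25+ and 2.63-fold above GFP- CD25- cells. Klf9 was high in 3 populations, at 8.42 log2 in Foxp3-fusion, 8.29 in Foxp3-null and 8.18 in GFP- CD25+ cells, against 5.79 in GFP- CD25- cells. It was 6.19-fold, 5.65-fold and 5.24-fold higher in those populations than in GFP- CD25- cells, where the Klf2 values were 1.06-fold higher, 1.27-fold higher and 1.39-fold lower.

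S1pr1, the egress receptor gene, was the flattest of the 9 genes. It read 6.43 log2 in Foxp3-fusion cells, 6.95 in Foxp3-null cells, 6.81 in GFP- CD25+ cells and 6.57 in GFP- CD25- cells, a range of 0.52 log2, and 21.7% of genes above the floor on all arrays had a smaller one. As deposited the 4 values were 6.76, 6.66, 6.66 and 6.66 in the same order, a range of 0.10 log2. No pair of arrays was 2-fold apart on either scale, and 5 of the 6 differences changed sign between the scales, so no order of the populations is given for S1pr1.

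S1pr4, which encodes another sphingosine 1-phosphate receptor of lymphocytes, was highest in Foxp3-fusion cells. It read 7.40 log2 in Foxp3-fusion cells, 6.98 in Foxp3-null cells, 6.57 in GFP- CD25+ cells and 6.55 in GFP- CD25- cells. Foxp3-fusion cells stood 1.81-fold above GFP- CD25- cells, 1.79-fold above GFP- CD25+ cells and 1.34-fold above Foxp3-null cells. As deposited these differences were 2.17-fold, 2.53-fold and 2.11-fold, each past the 2-fold line. After the median of all genes was taken off, these 3 differences lay between 0.84 and 1.15 log2 as deposited and between 0.57 and 0.93 log2 normalized. The other receptor gene above the floor, S1pr2, had a different order, at 6.19 log2 in Foxp3-fusion cells, 7.90 in Foxp3-null cells, 6.66 in GFP- CD25+ cells and 6.51 in GFP- CD25- cells. For S1pr2 the Foxp3-fusion value was 3.28-fold below the Foxp3-null value, while S1pr3 and S1pr5 were under the floor on every array.

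Sequences before the starts of Klf2 and S1pr4 are shown because KLF proteins bind the CACCC box and Klf2 and the receptor genes are a regulator and candidate targets in the egress pathway. The bases are the 250 upstream of each start in RefSeq for GRCm38.p6, 5' to 3' in the direction of the gene, and capitals mark CACCC or its reverse complement GGGTG.
Klf2, chr8:72318812-72319061, plus strand: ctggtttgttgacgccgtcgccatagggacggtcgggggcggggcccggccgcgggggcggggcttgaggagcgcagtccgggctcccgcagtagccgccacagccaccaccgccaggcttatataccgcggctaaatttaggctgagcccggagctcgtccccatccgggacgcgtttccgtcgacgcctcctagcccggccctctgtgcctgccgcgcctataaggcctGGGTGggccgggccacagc
S1pr4, chr10:81500138-81500387, minus strand: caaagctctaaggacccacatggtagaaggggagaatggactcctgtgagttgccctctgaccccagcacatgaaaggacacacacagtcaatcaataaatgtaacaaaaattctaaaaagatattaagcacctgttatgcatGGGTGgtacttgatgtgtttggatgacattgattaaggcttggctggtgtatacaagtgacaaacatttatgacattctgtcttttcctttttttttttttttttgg
Both windows held 1 match, 19 bases before the start of Klf2 and 107 bases before that of S1pr4, counted from the first base of the match in gene direction, and both matches lay on the strand opposite to the gene. CACCC in either orientation was present in 52.0% of 32851 windows of the same length, so its presence is common. The longer pattern CCNCNCCC, searched on both strands, had 4 matches before Klf2, 0 before S1pr4 and 3 before Cd44, and was present in 45.9% of windows. Overlapping matches were each counted, and some of those before Klf2 and Cd44 overlap, so the counts are not of separate sites. The Cd44 window held no CACCC.

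Cd69 was highest in GFP- CD25- cells and lowest in GFP- CD25+ cells. It read 9.96 log2 in Foxp3-fusion cells, 9.57 in Foxp3-null cells, 8.84 in GFP- CD25+ cells and 10.37 in GFP- CD25- cells. GFP- CD25+ cells were 2.88-fold below GFP- CD25- cells (3.45-fold as deposited), and 1.38% of measured genes were lower still in that comparison. Foxp3-fusion cells were 1.32-fold below GFP- CD25- cells and Foxp3-null cells 1.74-fold below them (2.19-fold as deposited). Over GFP- CD25+ cells, Foxp3-fusion cells were 2.18-fold higher and Foxp3-null cells 1.65-fold higher. All 6 Cd69 differences kept their sign on the deposited scale, and neighbours in the order of the 4 arrays were each under 2-fold apart after normalization.

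Other genes induced by antigen receptor signals were not lower as a list in GFP- CD25+ cells. GFP- CD25+ over GFP- CD25- cells gave 13 measured genes, of which 3 were at least 2-fold higher and 0 lower (3 and 1 as deposited), with a median of 0.27 log2 against 0.10 over all genes. These 3 were the nuclear receptor genes Nr4a2 at 4.81-fold and Nr4a3 at 3.65-fold and the phosphatase gene Dusp5 at 2.77-fold. The share of all genes was 4.17% higher and 4.53% lower (2.79% and 7.19% as deposited). The gene counted as lower on the deposited scale was Egr1, at -1.14 log2 (-0.89 normalized). Nr4a3 was not raised in GFP- CD25+ cells alone. Its ratio to GFP- CD25- cells was 4.43-fold for the Foxp3-fusion array and 5.89-fold for the Foxp3-null array. For Nr4a2 these ratios were 1.02-fold and 2.51-fold, and Dusp5 differed by -0.18 and -0.24 log2. In Foxp3-fusion over Foxp3-null cells 3 of 13 were higher, the transcription factor genes Irf4 at 3.54-fold and Myc at 3.10-fold and the phosphatase gene Dusp2 at 2.18-fold, and 1, Nr4a2, was 2.46-fold lower. As deposited 4 were higher and 0 lower, with Nr4a2 at -0.73 log2. All genes gave 9.3% higher and 9.29% lower there (19.6% and 3.77% as deposited). Cd69 was 1.32-fold higher there.

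Cd44 was highest in Foxp3-fusion cells on both of its probe sets above the floor, and its level in Foxp3-null cells depended on the probe set. The main probe set read 10.35 log2 in Foxp3-fusion cells, 8.06 in Foxp3-null cells, 9.82 in GFP- CD25+ cells and 8.46 in GFP- CD25- cells. The second read 9.49 in Foxp3-fusion cells, 8.45 in Foxp3-null cells, 8.13 in GFP- CD25+ cells and 6.85 in GFP- CD25- cells. Foxp3-null cells were thus lowest on the main probe set and second highest on the other.

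Foxp3-fusion cells exceeded GFP- CD25- cells by 3.69-fold on the main Cd44 probe set and 6.24-fold on the second. They exceeded Foxp3-null cells by 4.89-fold and 2.05-fold. GFP- CD25+ cells exceeded GFP- CD25- cells by 2.57-fold and 2.44-fold, so these 3 differences were at least 2-fold on both. For Foxp3-null over GFP- CD25- cells the main probe set was 1.32-fold lower and the second 3.05-fold higher, and for Foxp3-null over GFP- CD25+ cells the values were 3.40-fold lower and 1.25-fold higher. These opposite directions held on the deposited scale too, and 2 further Cd44 probe sets were under the floor on every array. No direction is given for Cd44 in Foxp3-null cells against either GFP- population.

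**Figure D3:**
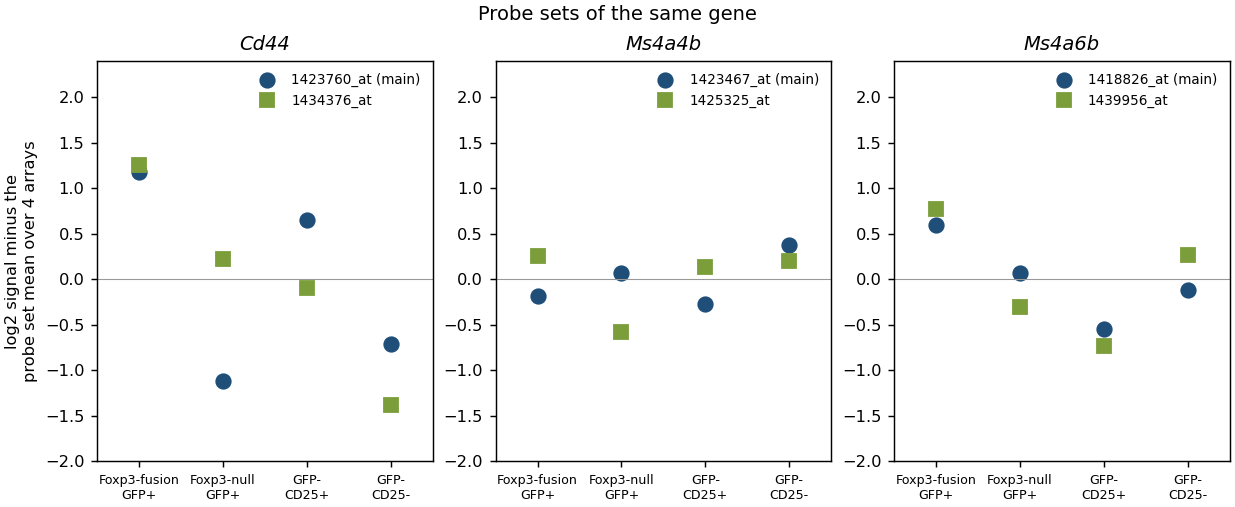
Log2 signal minus the mean over 4 arrays for the probe sets above the floor of Cd44, Ms4a4b and Ms4a6b, with the main probe set as circles and the second as squares. In the Cd44 panel the circle and square lie close for Foxp3-fusion cells and apart for the other populations. They differ in sign for Foxp3-null and GFP- CD25+ cells.

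Selplg was lower in GFP- CD25+ cells than in the other 3 populations. It read 8.65 log2 in Foxp3-fusion cells, 9.19 in Foxp3-null cells, 7.45 in GFP- CD25+ cells and 8.59 in GFP- CD25- cells. GFP- CD25+ cells stood 2.20-fold below GFP- CD25- cells (2.60-fold as deposited), and 3.34% of measured genes were lower in that comparison. Relative to GFP- CD25+ cells, Foxp3-null cells were 3.33-fold higher and Foxp3-fusion cells 2.30-fold higher, and 1.75% and 8.45% of genes had larger differences. The other 3 populations lay within 1.51-fold of each other, and the order of Foxp3-fusion and Foxp3-null cells turned round on the deposited scale (-0.53 log2 normalized, 0.11 deposited).

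Ms4a4b, whose product associates with the receptor GITR on mouse T cells, had its highest signal in GFP- CD25- cells. It read 12.95 log2 in Foxp3-fusion cells, 13.20 in Foxp3-null cells, 12.86 in GFP- CD25+ cells and 13.51 in GFP- CD25- cells, and the largest difference was 1.57-fold, lower in GFP- CD25+ than in GFP- CD25- cells. The second Ms4a4b probe set read 8.06 log2 in Foxp3-fusion cells, 7.22 in Foxp3-null cells, 7.94 in GFP- CD25+ cells and 8.00 in GFP- CD25- cells. It was lowest in Foxp3-null cells, and 3 of 6 differences ran opposite to the main probe set (2 of 6 as deposited), so no order of the populations is given for Ms4a4b.

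Ms4a6b, a gene of the same family of membrane-spanning proteins, was highest in Foxp3-fusion and lowest in GFP- CD25+ cells on both probe sets. The main one read 12.20 log2 in Foxp3-fusion cells, 11.68 in Foxp3-null cells, 11.06 in GFP- CD25+ cells and 11.50 in GFP- CD25- cells. On the second the values were 11.94 in Foxp3-fusion cells, 10.86 in Foxp3-null cells, 10.43 in GFP- CD25+ cells and 11.44 in GFP- CD25- cells. Foxp3-fusion over GFP- CD25+ cells was 2.20-fold on the main probe set and 2.85-fold on the second, the only normalized Ms4a6b difference that was at least 2-fold on both. As deposited, Foxp3-fusion over Foxp3-null cells was past 2-fold on both too, at 1.08 and 1.65 log2. Foxp3-null against GFP- CD25- cells had opposite signs on the 2 probe sets when normalized, 0.19 and -0.58 log2, but the same sign as deposited, -0.10 and -0.87 log2.

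Ms4a4b and Ms4a6b lie in the Ms4a cluster of mouse chromosome 19 with 2 protein-coding genes between them in the RefSeq annotation, Ms4a6c and Gm8369. The 250 bases before their starts are shown because both genes lie in this cluster. They come from RefSeq for GRCm38.p6, with the same capitals as above.
Ms4a4b, chr19:11443308-11443557, plus strand: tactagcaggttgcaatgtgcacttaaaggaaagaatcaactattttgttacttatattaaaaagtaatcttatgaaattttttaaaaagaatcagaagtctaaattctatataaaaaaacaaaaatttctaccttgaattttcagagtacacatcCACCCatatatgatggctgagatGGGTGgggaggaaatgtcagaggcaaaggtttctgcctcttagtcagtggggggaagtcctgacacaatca
Ms4a6b, chr19:11518309-11518558, plus strand: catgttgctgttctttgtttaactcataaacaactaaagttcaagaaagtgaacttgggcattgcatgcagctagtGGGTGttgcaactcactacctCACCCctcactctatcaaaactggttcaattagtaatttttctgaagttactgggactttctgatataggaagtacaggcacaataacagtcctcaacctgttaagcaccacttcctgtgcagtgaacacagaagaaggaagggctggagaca
Each window held 2 matches to CACCC, 1 in each orientation, the nearest 71 bases before the start of Ms4a4b and 153 bases before that of Ms4a6b. The share of all windows with a match was that given above.

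The other Ms4a genes above the floor were lowest in Foxp3-fusion or GFP- CD25- cells. Ms4a4c read 8.90 log2 in Foxp3-fusion cells, 11.09 in Foxp3-null cells, 9.60 in GFP- CD25+ cells and 7.66 in GFP- CD25- cells, a Foxp3-null value 10.8-fold above that of GFP- CD25- cells. Ms4a6c read 8.63, 8.39, 7.54 and 6.91 log2 in the same order of populations, so like Ms4a6b it was highest in Foxp3-fusion cells. Of 5 measured Ms4a genes outside the 9, all 5 stood at least 2-fold higher in Foxp3-null over GFP- CD25- cells (3 of 5 as deposited). Of all genes 10.8% were higher there (5.43% as deposited). In Foxp3-fusion over Foxp3-null cells 0 were higher and 3 lower on both scales, where 9.3% and 9.29% of all genes were (19.6% and 3.77% as deposited). Ms4a1, Ms4a4d and Ms4a6d were near the floor in GFP- CD25- cells, at 4.51, 4.48 and 4.69 log2. In Foxp3-fusion cells Ms4a1 and Ms4a6d were under it. Ms4a4b and Ms4a4c, and Ms4a6b, Ms4a6c and Ms4a6d, are close relatives whose transcripts can share probes, so signals of single members are uncertain.

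Several Ms4a genes are known from myeloid and B cells, and Ms4a1 encodes the B cell protein CD20. Of 11 markers of dendritic cells and macrophages, 3 were above the floor in Foxp3-fusion cells, 5 in Foxp3-null cells, 3 in GFP- CD25+ cells and 3 in GFP- CD25- cells. Their summed linear signals were 241, 408, 316 and 296 in that order, with Itgax, Itgam, Lyz2, H2-Ab1, Flt3 and Siglech under the floor on every array. Csf1r, Adgre1, Mpeg1 and Cst3 were highest in Foxp3-null cells, at 5.50, 5.21, 6.99 and 5.78 log2. Cst3 was close to that in Foxp3-fusion cells, at 5.77. H2-Aa was highest in GFP- CD25- cells at 6.68 log2 and read 6.49 in Foxp3-null cells. Of 7 B cell markers 6 were under the floor on every array and the other was Ms4a1, at 5.63 log2 in Foxp3-null cells. Their part in the Ms4a differences was not tested.

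**Figure D4:**
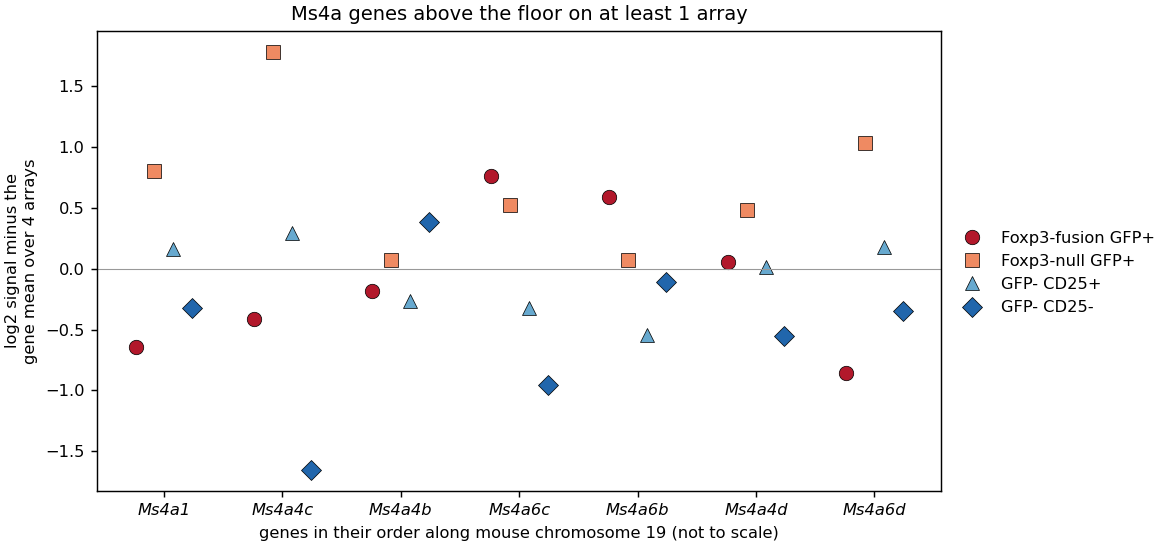
Log2 signal minus the gene mean over the 4 arrays (values under the floor set to the floor) for the 7 Ms4a genes above the floor on at least 1 array, in their order along chromosome 19. Ms4a4c and Ms4a6d are highest in Foxp3-null cells, while Ms4a6b is highest in Foxp3-fusion cells and Ms4a4b in GFP- CD25- cells.

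Cd52, which encodes a small lipid-anchored glycoprotein of mature lymphocytes, was lower in GFP- CD25+ cells and close in the others. It read 12.10 log2 in Foxp3-fusion cells, 12.48 in Foxp3-null cells, 11.63 in GFP- CD25+ cells and 12.44 in GFP- CD25- cells. Relative to GFP- CD25- cells, GFP- CD25+ cells were 1.75-fold lower (1.91-fold as deposited), and 6.98% of measured genes were lower. Foxp3-fusion cells stood 0.47 log2 and Foxp3-null cells 0.85 log2 above GFP- CD25+ cells. No pair of arrays was 2-fold apart for Cd52 on either scale.

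A wider list of egress pathway genes, which holds none of the 9, was lower in GFP- CD25+ cells. Like the 9 genes, the list was chosen with earlier results of these data known, so it gives no independent check of them. Set against GFP- CD25- cells, 4 of 20 measured genes of the list were at least 2-fold lower and 0 higher, with a median of -0.63 log2 against 0.10 over all genes (6 of 19 lower and 0 higher as deposited). By comparison, 4.53% of all genes were lower (7.19% as deposited). Il7r, the interleukin 7 receptor chain gene, was 8.09-fold lower, Rac2, a small GTPase of blood cells used in migration, 5.66-fold, Arrb2, a beta-arrestin gene, 2.38-fold, and Rac1 2.13-fold. Foxp3-fusion cells had 10 of 19 at least 2-fold above GFP- CD25+ cells and 0 below (11 and 0 as deposited), with a median of 1.09 log2 against -0.09 over all genes. The same comparison for Foxp3-null cells gave 10 of 20 higher and 0 lower (9 and 0 as deposited), with a median of 0.90 against 0.10. Both use the GFP- CD25+ array, and 11.6% and 8.65% of all genes were higher in them (21.1% and 6.27% as deposited).

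In Foxp3-fusion over GFP- CD25+ cells the 4 largest differences of the list were those of Rac2 at 5.64-fold, Klf3 at 3.92-fold, Mob1a, a cofactor gene of the Hippo kinases, at 3.80-fold and Gnai3, of an inhibitory G protein, at 3.76-fold. In Foxp3-null over GFP- CD25+ cells they were those of Rac2 at 9.42-fold, Ccr7, a chemokine receptor gene of medullary and naive T cells, at 3.29-fold, the integrin gene Itgb7 at 2.67-fold and Klf3 at 2.63-fold. Ccr7 was 3.09-fold higher in the Foxp3-fusion comparison. Foxp3-fusion cells had 6 of 20 at least 2-fold above GFP- CD25- cells and 4 below (6 and 3 of 19 as deposited), and 3 were higher and 2 lower in Foxp3-null cells (1 and 2 as deposited). Foxp3-fusion over Foxp3-null cells gave 1 of 20 higher and 2 lower, but 6 and 1 as deposited. The shares of all genes in these comparisons are those given with the counts of the 9 genes. Relative to GFP- CD25- cells, Foxo1, which activates Klf2 and Il7r in mouse T cells, was 2.09-fold higher in Foxp3-fusion and 2.12-fold higher in Foxp3-null cells, and Il7r was 2.46-fold and 3.54-fold lower. As deposited, Foxo1 in Foxp3-null cells was 0.73 log2 higher, under 2-fold. Cxcr4 was under the floor on every array.

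Late maturation genes outside the 9, a list chosen with the same knowledge, were lower or under 2-fold apart in GFP- CD25+ cells. Of 12 measured, 4 were at least 2-fold lower and 0 higher in GFP- CD25+ than in GFP- CD25- cells, with a median of -0.53 log2. Over all genes the median was 0.10 log2 and 4.53% were lower (7.19% as deposited). Over GFP- CD25+ cells 8 were higher and 0 lower in Foxp3-fusion cells, where 11.6% of all genes were higher (21.1% as deposited). In Foxp3-null cells 6 were higher and 0 lower, with a median of 0.99 log2 (5 and 0 as deposited). There 8.65% of all genes were higher (6.27% as deposited). The class I gene H2-D1 was 8.63-fold and 4.08-fold higher and the Schlafen gene Slfn1 3.67-fold and 5.51-fold higher. Relative to GFP- CD25- cells, 4 were higher and 3 lower in Foxp3-fusion cells (5 and 2 as deposited), and 4 were higher and 2 lower in Foxp3-null cells (0 and 2 as deposited). Shares of all genes were 10.1% higher and 5.39% lower for Foxp3-fusion cells (14.8% and 3.69% as deposited). For Foxp3-null cells they were 10.8% and 7.57% (5.43% and 11.7% as deposited). Il7r and Ccr7 stand in both lists.

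Immature thymocyte genes split in GFP- CD25+ over GFP- CD25- cells, with 3 of 10 measured at least 2-fold higher and 4 lower (2 and 5 as deposited). In this comparison 4.17% of all genes were higher and 4.53% lower (2.79% and 7.19% as deposited). Dntt, which adds bases during receptor gene assembly, was 8.28-fold higher, Cd24a, a surface protein gene lost on maturation, 2.81-fold, and Rag1, of the recombinase, at least 2.04-fold higher, with 0.93 log2 as deposited. Ccr9, a chemokine receptor gene of immature thymocytes, was 4.28-fold lower, and Itm2a, Nab2 and Satb1 were also lower. In Foxp3-fusion over GFP- CD25- cells 0 of 9 were higher and 7 lower (6 as deposited), where 5.39% of all genes were lower (3.69% as deposited). In Foxp3-null over GFP- CD25- cells 0 were higher and 6 lower (8 as deposited), where 7.57% of all genes were lower (11.7% as deposited). Cd24a was 5.84-fold lower in Foxp3-fusion and 1.97-fold lower in Foxp3-null cells (-1.35 log2 in Foxp3-null cells as deposited). Ccr9 was 17.6-fold and 5.85-fold lower.

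**Figure D5:**
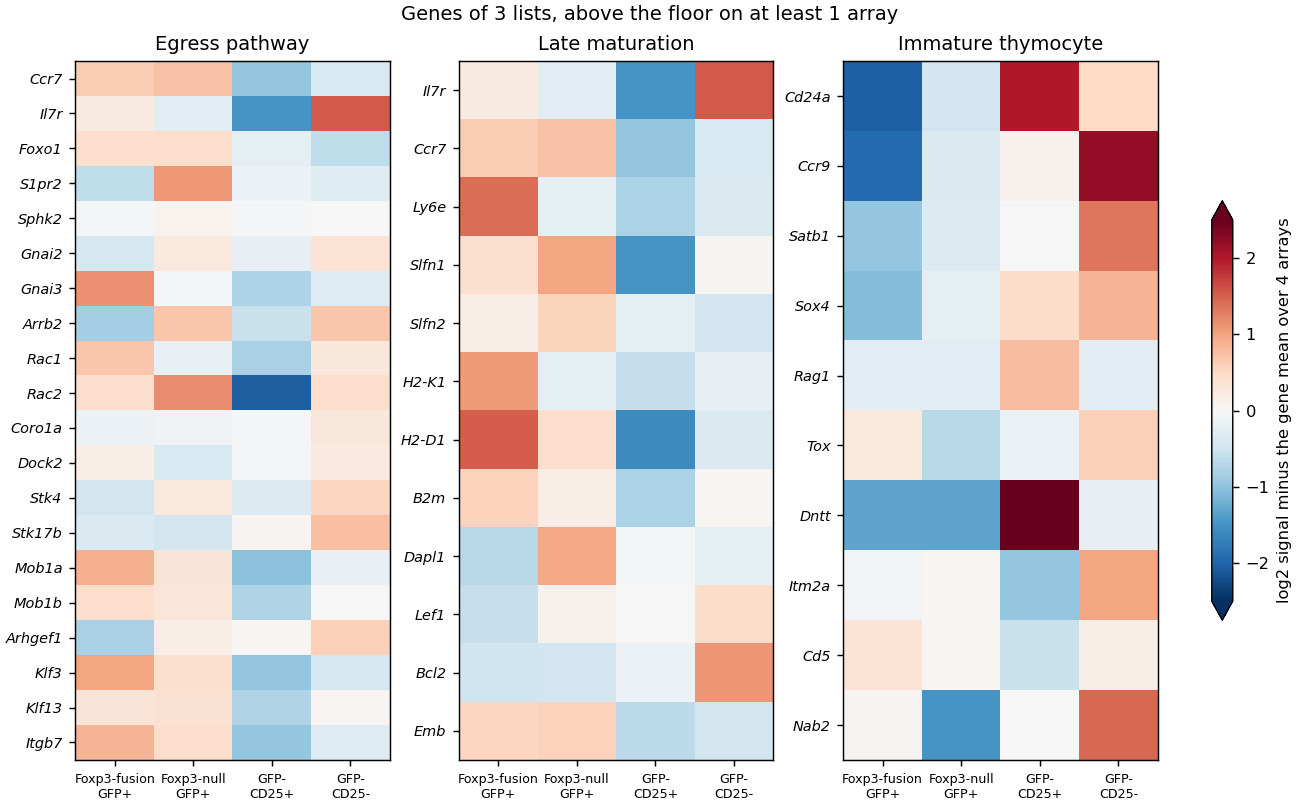
Log2 signal minus the gene mean over the 4 arrays, by colour from blue (lower) to red (higher), for measured genes of the egress pathway, late maturation and immature thymocyte lists, with values under the floor set to the floor. Il7r, Rac2 and H2-D1 are lowest in GFP- CD25+ cells, where Dntt and Cd24a are highest.

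The genes whose 4 values ran closest to those of the 9 were sought among the other 7097 genes above the floor on all arrays, by the distance between profiles centred on their means, for the 4 genes with a range of at least 1 log2. Nearest to Cd69 were Vopp1 (distance 0.22 log2), Klhl6 (0.24) and Tram1 (0.27). Nearest to Cd44 on its main probe set were Tubb2b (0.38), Ppp1r16b (0.41) and Tubb2a (0.44). Selplg was followed by Rbm12 (0.19), Ip6k1 (0.20) and Scamp3 (0.20), and Ms4a6b by Ppp2cb (0.06), Gfpt1 (0.08) and Zmpste24 (0.09). With 4 arrays in all such likeness is a description only.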

How the data were processed

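RNA was amplified in 2 rounds and hybridised, per the labels' protocols. Each array has 1 deposited value for each probe set, taken as a log2 signal from its range. The authors' background correction, summarisation and normalization, and the log base, are not stated in the sources at hand. As deposited the 90th percentiles of the arrays ran from 7.54 to 8.16 log2, so the 45037 probe sets left without 64 controls were quantile normalized, which assumes equal distributions. Groups came from the sample titles; the description of the Foxp3-null sample repeats that of the fusion mice, and only its title and strain entry set it apart. Names came from the platform annotation (34958 probe sets with 1 gene, 932 with several, not named) and from RefSeq for GRCm38.p6. For the floor, the 90th percentile over 72 probe sets of genes silent in thymus was taken on each array and the highest kept, 4.19 log2 (4.22 as deposited). Lower values were set to it, a difference with 1 side there is written "at least", and pairs with both sides there have no difference. With 1 array per group no test was possible, and 2-fold was the threshold. The text names the 9 genes in every case, and from the other lists at most 4 genes per list and direction, largest first, with some fixed genes. The members and lists were chosen with earlier results of these data known. Scripts (Python 3.11.15, numpy 2.4.6, pandas 2.3.3) were tested on simulated data.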

Additional observations from a re-analysis of the deposited data

How the results depend on the processing

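The alternatives were a 3-fold threshold, values as deposited, arrays centred on their median signal above the floor, a floor raised by 1 log2 unit or dropped, the median of each gene's probe sets, and probe sets without the _s_at and _x_at kinds. No paired analysis was possible because each group had 1 array, and none could be left out. Centring left all 12 counts of genes and all 54 single differences within 1.5-fold of the main ones. Both changes of the floor and leaving out probe sets could not change them, so they are no check of these results. Every main probe set read at least 6.43 log2, above the raised floor, and none was of the _s_at or _x_at kind. As deposited, the counts at least 2-fold higher became 2 in Foxp3-fusion over GFP- CD25- cells (with S1pr4), 3 in Foxp3-fusion over Foxp3-null cells (with S1pr4 and Ms4a6b) and 5 in Foxp3-fusion over GFP- CD25+ cells (with Klf2 and S1pr4), and Foxp3-null over GFP- CD25- cells had 1 lower gene, Cd69. With the median over probe sets, which for Cd44 takes in 2 under the floor, the count higher became 0 in GFP- CD25+ over GFP- CD25- cells and 0 in Foxp3-fusion over Foxp3-null cells, and Foxp3-null over GFP- CD25+ cells had 0 lower, down from 1. At 3-fold, GFP- CD25+ over GFP- CD25- cells had 0 higher and 0 lower, and Foxp3-fusion over GFP- CD25+ cells had 0 higher. Of the 54 single differences, 5 moved by more than 1.5-fold as deposited, all between Foxp3-fusion and Foxp3-null cells, and 4 with the median over probe sets, all of Cd44. No difference past 2-fold changed sign under these alternatives.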

Other observations

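Genes linked in mice to regulatory T cells that recirculate to the thymus were among the other lists examined. Foxp3-fusion over Foxp3-null cells had 7 of 10 measured at least 2-fold up and 2 down (8 and 1 as deposited), with a median of 1.87 log2 against -0.15 over all genes. All genes were 9.3% up and 9.29% down in that comparison (19.6% and 3.77% as deposited). Itgae, the CD103 chain gene, was 13.5-fold higher, S100a4 at least 12.1-fold, S100a6 10.6-fold and Nt5e, the CD73 gene, 6.17-fold, while Ccr2 was 3.30-fold lower. Klf2 and S1pr1 were 1.20-fold and 1.43-fold lower there when normalized, and 1.29-fold and 1.07-fold higher as deposited. In Foxp3-null over GFP- CD25- cells 4 of 9 of the list were higher and 1 lower, led by the chemokine receptor gene Ccr6 at no less than 36.8-fold. There 10.8% of all genes were higher and 7.57% lower (5.43% and 11.7% as deposited).

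PSGL-1 binds selectins only when its sugars are built by a set of transferases. In GFP- CD25+ over GFP- CD25- cells 0 of 8 measured were at least 2-fold higher and 2 lower, where 4.53% of all genes were lower (7.19% as deposited). The lower genes were C1galt1c1, the chaperone gene of the core 1 enzyme, by at least 3.75-fold and St3gal6, a sialyltransferase gene, by at least 3.07-fold. St3gal6 was above the floor only in GFP- CD25- cells, at 5.81 log2, so Foxp3-fusion and Foxp3-null cells were lower by the same bound. Gcnt1, the core 2 branching enzyme gene, stood in Foxp3-fusion cells 2.64-fold above Foxp3-null and 2.35-fold above GFP- CD25- cells, whereas Selplg differed by -0.53 and 0.06 log2. Gcnt1 was near the floor in Foxp3-null and GFP- CD25- cells, at 4.23 and 4.40 log2. Fut7 and Fut4, fucosyltransferase genes, were under the floor on every array. Among genes of CD44 partners, Hmmr, of another hyaluronan receptor, read 3.17-fold less in Foxp3-fusion than Foxp3-null cells, and the integrin gene Itga4 3.10-fold less. Hmmr was near the floor in Foxp3-fusion cells, at 4.40 log2.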
